A study of Homo sapiens with 4 samples.

Results

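The nuclear-encoded genes of oxidative phosphorylation (OXPHOS) were taken as the symbols that begin with NDUFA, NDUFB, NDUFC, NDUFS, NDUFV, UQCR, ATP5 or COX4 to COX8, with SDHA, SDHB, SDHC, SDHD and CYC1. Hyphenated symbols and symbols ending in P and a number were left out. The rule used names only and found 95 of the 24424 gene symbols counted. Of these, 84 encode subunits of the 5 complexes or their isoforms, 7 (NDUFAF1 to NDUFAF7) are assembly factors of complex I, and 4 (COX7A2L, NDUFA4L2, ATP5S and ATP5SL) are related proteins.

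The genes were counted by RNA sequencing in BEAS-2B, a widely used human line from bronchial epithelium, with 1 library for each of 4 conditions. Control cells were untreated, and LPS cells received bacterial lipopolysaccharide, a ligand of the innate immune receptor TLR4, for 2 hr. WT PDZ+LPS cells received a cell-penetrating peptide based on a PDZ domain of the tight junction protein ZO-1 for 24 hr and then LPS for 2 hr, and mut PDZ+LPS cells received a peptide with its glycine pair changed to alanine on the same schedule. All cells were labelled wild type, and no library of peptide without LPS was analysed here. Since no condition was repeated, no difference could be tested; intervals are exact binomial (Clopper-Pearson) at 95%, compare 2 libraries and cover counting error only. Comparisons are written LPS/Control, WT/LPS (WT PDZ+LPS over LPS), mut/LPS (mut PDZ+LPS over LPS) and mut/WT (mut PDZ+LPS over WT PDZ+LPS), and values given in library order run Control, LPS, then WT PDZ and mut PDZ with LPS. In this bulk RNA, a change in the number of cells and a change in RNA per cell cannot be told apart.

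Oxidative phosphorylation takes place in the inner mitochondrial membrane. Complex I takes electrons from NADH and complex II from succinate, complex III passes them to cytochrome c, and complex IV passes them to oxygen. Complexes I, III and IV pump protons, and complex V, the ATP synthase, makes ATP as the protons flow back. Most subunits are encoded in the nucleus and imported, and a small set is encoded in mitochondrial DNA; none of the 13 mitochondrially encoded subunits has a symbol in the count files used, so they were not analysed here.

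The promoters of many OXPHOS genes are known to carry sites for the nuclear respiratory factor NRF-1, for the ETS family factor GABP (also called NRF-2) and for YY1. RefSeq promoter sequences (GRCh38.p14, 250 bases before to 50 after the start) were matched by symbol for 70 of the 86 members expressed above a low-count filter. They were searched on both strands for NRF-1 letters (GCGC and GCGC parted by any 2 bases, which read the same on both strands), the ETS core CCGGAAG and the YY1 core AAGATGGC. Matches to different motifs overlapped in 0 of the 70 promoters. The NRF-1 letters were in 17 of 70 member promoters (24.3%) and in 8.32% of all 35116 promoters. ETS letters were in 20 (28.6%, against 10.3%) and YY1 letters in 11 (15.7%, against 2.89%). The YY1 letters began before the start only in ATP5F1 and ATP5J. In the other members they began from position 11 (NDUFA9 and SDHB) to position 39 (ATP5O) after it. They hold an ATG, and whether this was a translation start was not tested. Among the 10028 expressed genes with a promoter entry the shares were 16.3%, 19.8% and 5.52%. By complex, NRF-1 letters were in 7 of 32 promoters of complex I, 2 of 3 of complex II, 4 of 7 of complex III, 0 of 9 of complex IV and 3 of 11 of complex V. ETS letters were in 5 of the 9 complex IV promoters.

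The promoter stretches below belong to members at the ends of the mut/LPS order (ATP5I and COX5B near the top, NDUFS1 at the bottom) and to SDHA, which hardly differed between libraries. Capitals mark the motif letters found, and a match is a description of the sequence, not a bound site.
ATP5I, chr4:674237-674525, minus strand: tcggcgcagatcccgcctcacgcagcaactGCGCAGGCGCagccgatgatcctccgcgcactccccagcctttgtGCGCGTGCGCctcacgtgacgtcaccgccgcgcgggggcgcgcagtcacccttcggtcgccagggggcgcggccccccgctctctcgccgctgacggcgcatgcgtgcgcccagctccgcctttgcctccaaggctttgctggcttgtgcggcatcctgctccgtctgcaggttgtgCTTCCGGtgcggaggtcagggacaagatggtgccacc
COX5B, chr2:97645995-97646093, plus strand: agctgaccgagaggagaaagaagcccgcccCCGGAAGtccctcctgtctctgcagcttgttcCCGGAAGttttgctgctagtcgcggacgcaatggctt
NDUFS1, chr2:206159565-206159631, minus strand: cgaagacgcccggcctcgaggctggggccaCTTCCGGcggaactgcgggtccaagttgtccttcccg
SDHA, chr5:218124-218340, plus strand: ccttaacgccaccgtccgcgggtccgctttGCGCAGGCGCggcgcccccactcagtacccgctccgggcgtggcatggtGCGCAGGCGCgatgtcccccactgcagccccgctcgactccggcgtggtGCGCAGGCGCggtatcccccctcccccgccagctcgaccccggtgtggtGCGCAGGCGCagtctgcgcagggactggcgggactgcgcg
ATP5I held 3 matches (NRF-1 letters at 2 places and ETS letters near the start), COX5B held 2 ETS matches, NDUFS1 held 1 ETS match and SDHA held 4 NRF-1 matches. Members at both ends of the order carried ETS letters. Across the 70 promoters, the median log2 fold change in mut/LPS was 0.46 with ETS letters and 0.33 without, 0.31 with NRF-1 letters and 0.38 without, and 0.21 with YY1 letters and 0.38 without. These values were not corrected for transcript length, with which mut/LPS moved across the 86 members (Spearman's rho of -0.59). A link between motif and fold change was not tested.

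The libraries held 19682929 (mut PDZ+LPS) to 25155647 (LPS) counts, and geometric size factors ran from 0.851 to 1.15. Of the 24424 symbols, 13072 reached 16 normalized counts as the mean of the 4 libraries, the low-count filter used below. As markers of the cell type, the epithelial keratins KRT7, KRT8 and KRT18 lay between 12781 and 51663 normalized counts in every library. All 8 listed epithelial markers passed the filter, with KRT17 at 5261 to 13059 normalized counts and KRT5 at 1015 to 1607. The others were lower, with CDH1 at 362 to 620, KRT19 at 87.9 to 188 and EPCAM at only 34.8 to 49.5. Of 5 leukocyte markers, PTPRC was at 0 in every library, while CD14 and CD68 had 305 to 523; the 3 endothelial markers summed to 5.87 to 14.1, and 2 of 4 fibroblast markers passed the filter, with COL1A1 at 288 to 422 normalized counts, PDGFRB at 78.7 to 121 and COL3A1 at 0. One feature of the libraries touches every comparison with mut PDZ+LPS: over 12094 genes with a transcript length, Spearman's rho between length and log2 fold change was -0.60 in mut/LPS, against 0.16 in LPS/Control and 0.076 in WT/LPS. Genes are not independent replicates, so these are descriptions.

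Nearly all subunits of the complexes were expressed. Of the 95 members, 86 passed the filter: 37 of 37 in complex I, 4 of 4 in complex II, 9 of 10 in complex III, 11 of 17 in complex IV and 15 of 16 in complex V, with the 7 assembly factors and 3 of the 4 related proteins. As a share of all counts, the 95 members held 0.959% in Control (0.955 to 0.963) and 0.866% in LPS (0.863 to 0.870). The share was 0.842% with WT PDZ+LPS (0.838 to 0.846) and 1.04% with mut PDZ+LPS (1.04 to 1.05). These shares are of counts, not scaled by length, and they also depend on the counts of all other genes. Scaled by total counts, the median log2 fold change in LPS/Control was -0.17 over the 86 members and -0.13 over all 13072 genes. In mut/LPS it was 0.37 and 0.010. Complex V held the largest in each library, from 0.293% with the WT PDZ peptide to 0.331% with mut PDZ, and complex II the smallest, from 0.0584% to 0.0669%. The share of ATP5A1 and ATP5B together, the subunits of the catalytic head, was 0.155%, 0.147%, 0.139% and 0.123% in library order, and so was lowest in mut PDZ+LPS, where the share of all members was highest.

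**Figure D1:**
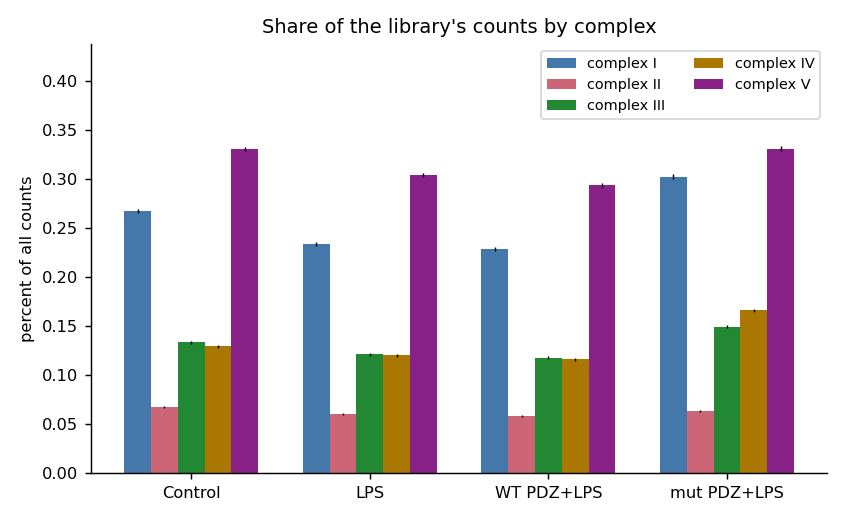
Percent of each library's counts (y axis) held by the subunits of complex I to V in the 4 libraries (x axis, 1 library each); bars start at 0 and error bars are 95% binomial intervals for counting error only. Complex I goes from 0.267% in Control to 0.228% with the WT PDZ peptide and 0.302% with the mutant one.

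The level per kilobase of transcript named the leading subunit of each complex: NDUFS5 in complex I (5813 normalized counts per kb), SDHA in complex II (3106), UQCRH in complex III (7071), COX6A1 in complex IV (5402) and ATP5B in complex V (9950). Transcript length here was that of the longest annotated protein-coding transcript, which can be longer than the one expressed; per kilobase of coding sequence the values were 10018, 3726, 15644, 9450 and 11530. On that scale the leader was another subunit in 3 of the 5 complexes: SDHD in complex II (4953), COX7C in complex IV (28126) and ATP5E in complex V (28000). NDUFS5 had 2879, 2793, 2920 and 4150 normalized counts in library order. UQCRH, the hinge protein of complex III, had 3939, 4045, 3947 and 5152 in the same order. Across members the order of levels was alike in all libraries, with a Spearman's rho over the 86 members of 0.991 for LPS/Control, 0.995 for WT/LPS and 0.953 for mut/LPS.

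Isoforms known from muscle, testis or other tissues were at or near 0. COX4I2, COX6A2, COX7B2 and COX8C had 0 counts in all 4 libraries, which at the smallest total allows up to 3 counts in 19682929. COX7A1, the muscle isoform, had 4.35, 2.82, 0 and 1.18 normalized counts, and COX6B2, the testis isoform, had 5.22, 5.64, 2.02 and 8.22. Of their partners, COX4I1 had 2187, 2125, 2037 and 3091 normalized counts, COX6A1 2730, 2672, 2684 and 4273, and COX7A2 2209, 2362, 2333 and 2975. The remaining members under the filter were UQCRHL (2 counts, in WT PDZ+LPS only), ATP5L2 (1.74 to 11.8 normalized counts) and NDUFA4L2, a relative of NDUFA4 known as hypoxia-induced (11.3, 1.88, 5.05 and 4.70). No fold is given for these, since the counts are few. The 3 genes that encode the same c subunit of the ATP synthase ring were all expressed: ATP5G1 had 1971, 1809, 1839 and 2500 normalized counts, ATP5G2 3507, 3344, 3497 and 4627, and ATP5G3 4336, 4573, 4478 and 5343. COX7A2L, linked to supercomplex assembly, had 1455, 1461, 1474 and 1503 and differed little between libraries.

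**Figure D2:**
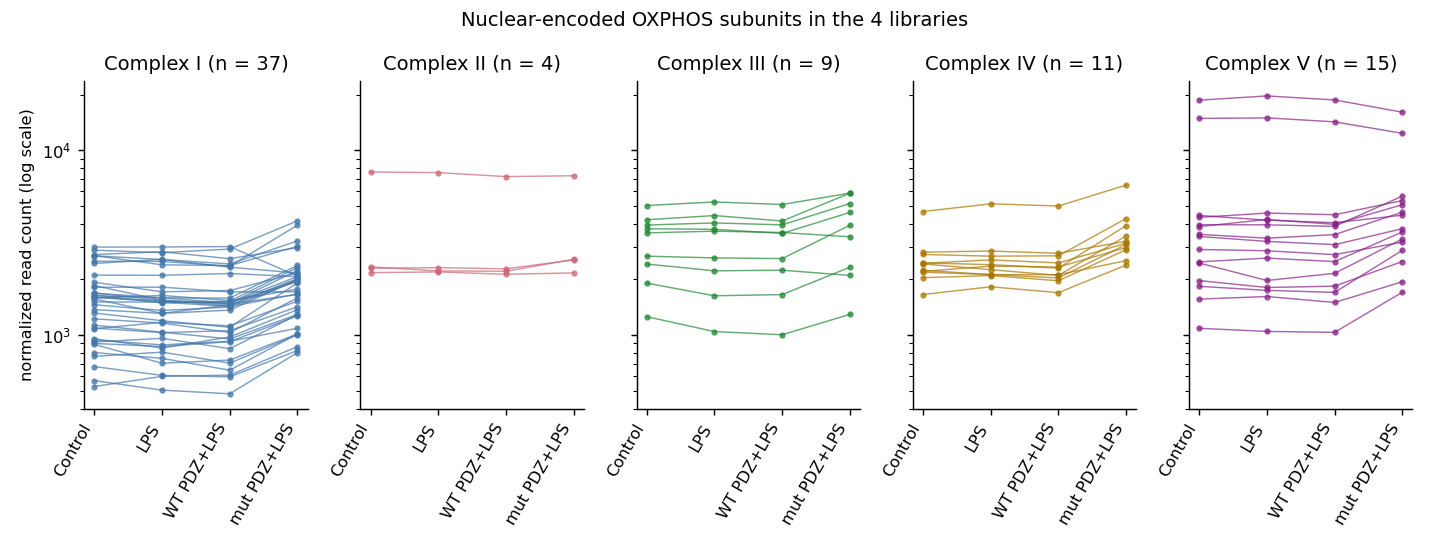
Normalized read count on a log scale (y axis) of each subunit above the low-count filter in the 4 libraries (x axis), 1 panel per complex and 1 line per gene. Most lines run flat from Control to WT PDZ+LPS and go up at mut PDZ+LPS; SDHA in complex II and ATP5A1 and ATP5B at the top of complex V do not.

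Control, LPS and WT PDZ+LPS differed little in these genes. For each member the highest of these 3 libraries was divided by the lowest: the median ratio over 86 members was 1.07, 54 members were under 1.1, and the largest ratio was 1.29 (NDUFAF6). These ratios were not taken over all genes, so they do not set the members apart. The members were also more abundant, with a median of 1891 normalized counts against 803 over the 12094 genes with a transcript length. No member reached a 2-fold difference in LPS/Control, where 4.87% of 13277 genes did, or in WT/LPS, where 1.37% of 13236 did. At 1.5-fold there were also 0 members higher and 0 lower. The backgrounds were 6.71% higher and 4.77% lower in LPS/Control, against 2.15% and 2.16% in WT/LPS.

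LPS/Control compares LPS for 2 hr with no treatment. The median log2 fold change over the 86 members was -0.043, with quartiles of -0.10 and 0.029, beside -0.0010 over all 13072 genes; 57 members were below 0 and 29 above. By complex, the median was -0.075 in complex I (28 of 37 below 0), -0.00049 in complex II, -0.011 in complex III, 0.021 in complex IV and -0.023 in complex V. After the transcript-length correction described below, 45 members were below 0, and the medians of complexes II, III and V were above it, at 0.0076, 0.043 and 0.025. The counting interval left out 0 for 24 members (27.9%) on the lower side and for 9 (10.5%) on the higher side, as it did for 21.2% and 26% of all 13072 genes. It narrows with more counts, so these shares also depend on how abundant the genes are.

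The lowest members in LPS/Control were NDUFAF6, an assembly factor, NDUFV3, an accessory subunit of the NADH-oxidizing module, and ATP5J2, the membrane subunit f of the ATP synthase. NDUFAF6 had 238 normalized counts in Control and 184 in LPS, a log2 fold change of -0.37 (-0.64 to -0.10). NDUFV3 had 889 and 704, a log2 fold change of -0.34 (-0.48 to -0.20). ATP5J2 had 2453 and 1974, a log2 fold change of -0.31 (-0.40 to -0.23). At the upper end NDUFB1, an accessory subunit of the membrane arm, had 527 and 597 normalized counts, a log2 fold change of 0.18 (0.02 to 0.35). NDUFAF4 was at 0.14 and COX7C at 0.14. Of the core subunits of complex I, NDUFS8 was at -0.14 and NDUFV1 at 0.05, and those of complex II lay between -0.07 (SDHB) and 0.01 (SDHC).

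WT/LPS compares LPS after the WT PDZ peptide with LPS alone, and it shares the LPS library with LPS/Control. The median over the 86 members was -0.036, with quartiles of -0.077 and 0.020, beside 0.0075 over all genes; 58 members were below 0 and 28 above. The medians were -0.056 in complex I, -0.032 in complex II, -0.035 in complex III, -0.054 in complex IV and -0.046 in complex V. The counting interval left out 0 for 18 members (20.9%) on the lower side and 5 (5.81%) on the higher side, and for 10.1% and 12.1% of all genes.

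The lowest members in WT/LPS were accessory subunits of complex I. NDUFA8 had 748 normalized counts in LPS and 645 in WT PDZ+LPS, a log2 fold change of -0.21 (-0.37 to -0.06). NDUFB2 was at -0.20 and NDUFA1 at -0.19. The highest were the assembly factor NDUFAF3, with 503 and 589 normalized counts and a log2 fold change of 0.23 (0.05 to 0.40), the accessory subunit NDUFC1 at 0.20 and the assembly factor NDUFAF2 at 0.16. Of the core subunits of complex I, NDUFV1 was at -0.12 and NDUFS7 at 0.09.

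In mut PDZ+LPS most OXPHOS transcripts were higher than in the 3 other libraries. In mut/LPS the median log2 fold change over the 86 members was 0.34 (1.26-fold), with quartiles of 0.15 and 0.53, beside -0.023 over all genes, and 74 members were above 0. Against WT PDZ+LPS the median was 0.38, beside -0.020, with 77 members above 0. These comparisons share the mut PDZ+LPS library, so their agreement is not independent. Of the 86 members, 73 (84.9%) had their highest value in mut PDZ+LPS, as did 36.1% of all 13072 genes. Relative to Control the median of the members was 0.31. Short genes of all kinds were also mostly higher in mut/LPS. Under 700 nt 110 of 112 were above 0, and from 700 to under 1000 nt 284 of 300. At 2000 nt or more 3518 of 9681 genes and 18 of 29 members were above 0. The members have shorter transcripts than all genes at the median, so the background of all genes is not matched to them in length.

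**Figure D3:**
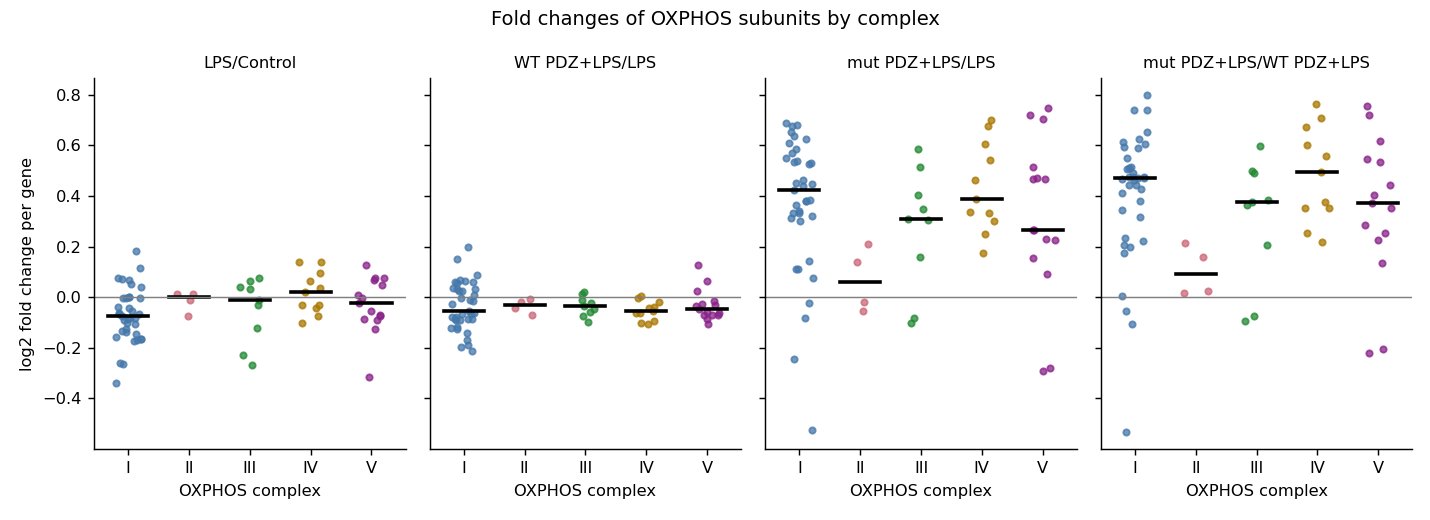
Log2 fold change of each subunit (points) by complex (x axis) in 4 comparisons, with the median of each complex as a black line; points are spread sideways only to show them. The medians of LPS/Control and WT/LPS lie between -0.075 and 0.021, while in mut/LPS they go from 0.060 in complex II to 0.42 in complex I.

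No member was 2-fold higher or lower in mut/LPS, where 3.95% of 13378 genes were, or in mut/WT, where 4.26% of 13372 were. At 1.5-fold, 15 members (17.4%) were higher and 0 lower in mut/LPS, beside 7.89% higher and 9.80% lower of all genes. In mut/WT, 17 members (19.8%) were higher and 0 lower, beside 8.40% and 10.7%. For mut PDZ+LPS over Control, 6 members (6.98%) were higher and 0 lower. That was below the share of all 13434 genes, 11.6% higher and 12% lower. The 15 were ATP5D, ATP5I, ATP5J2, COX5B, COX6A1, COX6B1, NDUFA2, NDUFA3, NDUFA11, NDUFA13, NDUFAF3, NDUFB4, NDUFC1, NDUFS8 and UQCRQ. NDUFS8 is a core subunit, ATP5D belongs to the F1 part of complex V and NDUFAF3 is an assembly factor. The rest are accessory or membrane subunits and nuclear-encoded subunits of complex IV. After removal of the trend over length and GC content described below, none of the 15 was 1.5-fold higher with either length; they lay between -0.09 and 0.42 on the log2 scale with transcript length and between -0.10 and 0.46 with coding length. The members at 1.5-fold were then 4 with transcript length (ATP5S, NDUFV3, SDHC and UQCRB, beside 4.08% of 12094 genes) and 1 with coding length (NDUFV3, beside 3.25%). None of these 4 was 1.5-fold higher as measured, where ATP5S was at 0.15 (-0.17 to 0.47) and SDHC was below 0. In mut/WT none of the 17 remained, and 5 and 0 other members were called. Counting intervals left out 0 for 69 members (80.2%) on the higher side and 6 (6.98%) on the lower side in mut/LPS, and for 28.8% and 34.2% of all genes.

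The complexes were not alike in mut/LPS. The median was 0.42 in complex I (33 of 37 above 0), 0.060 in complex II (2 of 4), 0.31 in complex III (7 of 9), 0.39 in complex IV (11 of 11) and 0.27 in complex V (13 of 15). In complex I the 30 accessory subunits had a median of 0.44 and the 7 core subunits of 0.33. In complex V the 5 subunits of F1 had a median of 0.23, and the 10 other subunits, of the stalk, ring and membrane, of 0.47. The 7 assembly factors had a median of 0.13.

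In complex I, the core subunits split. NDUFS1, the largest iron-sulfur subunit, had 2992, 2997, 3013 and 2083 normalized counts in library order. It was alike in the first 3 libraries and lower in the fourth, and its log2 fold change in mut/LPS was the lowest of all 86 members, -0.52 (-0.61 to -0.44). NDUFV1, which binds NADH and FMN, had 2727, 2823, 2590 and 2973, with 0.07 (-0.00 to 0.15).

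NDUFS8, NDUFS7, NDUFS3 and NDUFV2 were higher in mut PDZ+LPS than in each of the other 3 libraries. NDUFS8, which carries iron-sulfur clusters, had 1648, 1491, 1525 and 2321 normalized counts, a log2 fold change of 0.64 (0.54 to 0.73). NDUFS7 had 901, 866, 921 and 1270, a log2 fold change of 0.55 (0.42 to 0.68). NDUFS3 was at 0.38 and NDUFV2 at 0.33. NDUFA2, the accessory subunit highest in mut/WT, had 1316, 1196, 1102 and 1915, with a log2 fold change of 0.80 against WT PDZ+LPS (0.69 to 0.91).

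Complex II, which is also an enzyme of the citric acid cycle, had the median nearest to 0. SDHA, the flavoprotein subunit, had 7634, 7571, 7206 and 7280 normalized counts, a log2 fold change of -0.06 (-0.10 to -0.01) in mut/LPS. SDHB, the iron-sulfur subunit, had 2339, 2223, 2214 and 2570, a log2 fold change of 0.21 (0.12 to 0.29). SDHC and SDHD, the membrane anchors, were at -0.02 and 0.14. Reads of SDHA may be shared with its pseudogenes: SDHAP1, SDHAP2 and SDHAP3 had 167, 269 and 40 counts in Control.

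In complex III, the accessory subunits were higher in mut PDZ+LPS and the larger proteins less so. UQCRQ, an accessory subunit, had 2673, 2616, 2593 and 3926 normalized counts, a log2 fold change of 0.59 (0.51 to 0.66). CYC1, cytochrome c1, had 3762, 3734, 3550 and 4607, with 0.30 (0.24 to 0.37). UQCRC1, a core protein, was at 0.16 (0.10 to 0.21). UQCRC2 at -0.10 (-0.17 to -0.03) and the Rieske protein UQCRFS1 at -0.08 (-0.17 to 0.01) were lower in mut PDZ+LPS than in each other library.

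In complex IV every expressed subunit was above 0. COX5B had 2458, 2403, 2303 and 3909 normalized counts, a log2 fold change of 0.70 (0.63 to 0.78). COX6A1 had a log2 fold change of 0.68 (0.61 to 0.75), COX4I1 of 0.54 (0.46 to 0.62) and COX5A of 0.25 (0.17 to 0.34). NDUFA4, named for complex I but now assigned to complex IV, had the lowest, 0.18 (0.10 to 0.25).

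In complex V, the alpha and beta subunits of the catalytic head were lower in mut PDZ+LPS, and the gamma subunit was higher. ATP5B, the catalytic beta subunit, had 18681, 19692, 18730 and 16089 normalized counts, a log2 fold change of -0.29 (-0.32 to -0.26) in mut/LPS. ATP5A1, the alpha subunit, had 14877, 14983, 14256 and 12355, a log2 fold change of -0.28 (-0.31 to -0.24). ATP5C1, the gamma subunit of the rotor, was at 0.23 (0.16 to 0.30).

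The 3 highest members in mut/LPS were also in complex V. ATP5J2 had 2453, 1974, 2158 and 3309 normalized counts, a log2 fold change of 0.75 (0.66 to 0.83). It was also among the lowest in LPS/Control, which shares the LPS library. For mut PDZ+LPS over Control its log2 fold change was 0.43 (0.36 to 0.51). ATP5D, the delta subunit of F1, had 1835, 1745, 1701 and 2875, with 0.72 (0.63 to 0.81). ATP5I, the membrane subunit e, had 1088, 1046, 1034 and 1705, with 0.70 (0.59 to 0.82). In all, 9 members were lower in mut PDZ+LPS than in each other library, among them ATP5A1, ATP5B, NDUFA10, NDUFAF5, NDUFAF6, NDUFS1, UQCRC2 and UQCRFS1. How many of all genes were lowest there was not counted, so the 9 have no background beside them.

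Transcript length moved with these differences. The 86 members had a median transcript length of 1345 nt, against 3480 nt over the 12094 genes with a length. Spearman's rho between length and the log2 fold change in mut/LPS was -0.59 across the members and -0.60 across all those genes; with GC content it was 0.47 and 0.41. The 14 members under 700 nt had a median log2 fold change of 0.49, the 18 from 700 to under 1000 nt 0.53, the 25 from 1000 to under 2000 nt 0.34 and the 29 of at least 2000 nt 0.10. Genes of all kinds in the same bands had medians of 0.58, 0.48, 0.29 and -0.12. In WT/LPS rho was 0.054 across the members.

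**Figure D4:**
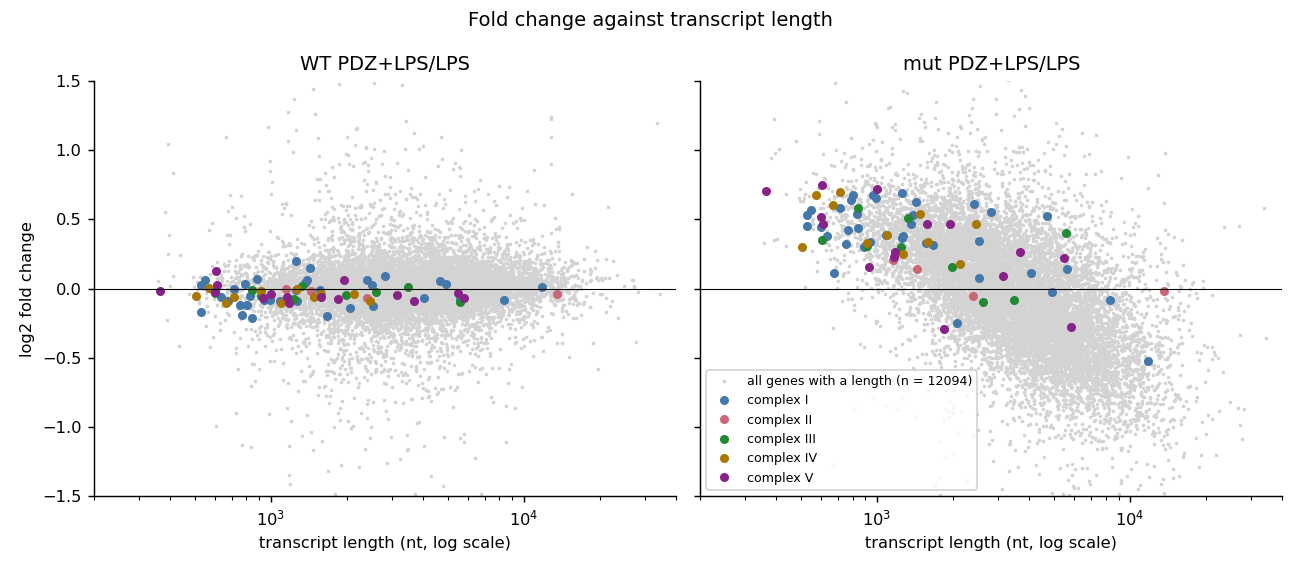
Log2 fold change (y axis) against transcript length on a log scale (x axis, nt) in WT/LPS and mut/LPS, with all 12094 genes in grey and the OXPHOS subunits coloured by complex; points beyond 1.5 on the y axis are not drawn. The subunits lie inside the grey cloud, which slopes down in mut/LPS (rho of -0.60) and is nearly level in WT/LPS (0.076).

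The trend over length and then GC content was removed with a lowess fit over the 12094 genes. The median of the members in mut/LPS was then 0.073, beside -0.0039 over all those genes, and 0.076 in mut/WT. By complex it was 0.076, -0.093, -0.053, 0.087 and 0.042 for complex I to V, so that complexes II and III were below 0. With the longest coding sequence in place of the transcript, the medians were 0.11 for the members and 0.12, 0.010, 0.028, 0.14 and 0.082 for complex I to V.

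**Figure D5:**
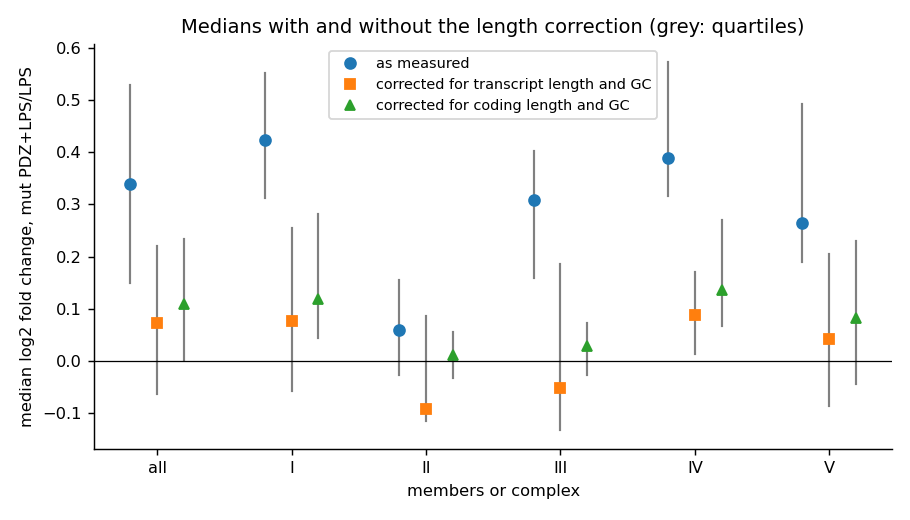
Median log2 fold change in mut/LPS (y axis) of the 86 members and of each complex (x axis), as measured and after correction for transcript or coding length with GC content; grey lines join the lower and upper quartile. The median of the members goes from 0.34 as measured to 0.073 and 0.11.

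Single members depended on the length used. NDUFS1 went from -0.52 to 0.07 with transcript length (11819 nt) and to -0.24 with coding length, and ATP5A1 from -0.28 to 0.09 and -0.10. ATP5B stayed below 0 under both, at -0.47 and -0.20. NDUFV3 was the highest member under both, at 0.79 and 0.64, and was among the lowest in LPS/Control, which shares the LPS library. ATP5D went from 0.72 to -0.09 and -0.10, and COX5B from 0.70 to 0.22 and 0.41. The cause of the length trend in the mut PDZ+LPS library was not tested, and with 1 library the peptide and the library cannot be told apart.

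Genes that serve the OXPHOS system but fall outside the symbol rule were counted as lists. All 40 listed assembly factors and carriers passed the filter; their median was -0.076 in LPS/Control, -0.0039 in WT/LPS and 0.20 in mut/LPS (0.054 after the transcript-length correction). At 2-fold 0 of the 40 were called in each of these. CYCS, cytochrome c, had 7694, 7937, 7992 and 9050 normalized counts.

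The 13 citric acid cycle genes, whose products supply NADH and succinate, had a median of 0.0012 in LPS/Control and -0.042 in WT/LPS. In mut/LPS it was -0.22, and -0.22 after the transcript-length correction, with 5 of 13 above 0. CS, citrate synthase, had 7957, 8571, 8646 and 6212 normalized counts, a log2 fold change of -0.46 (-0.39 corrected). OGDH was at -0.43. None of the 13 was 2-fold lower or higher.

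Of 13 regulators of mitochondrial gene expression, MYC alone was 2-fold different in LPS/Control, with 4238 normalized counts in Control and 8904 in LPS, and 8892 and 9164 in the peptide libraries. PPARGC1B, a coactivator, had 305, 564, 600 and 374, and PPARGC1A, a related coactivator, 708, 524, 456 and 313. NRF1 had 711, 654, 652 and 572, and GABPA, a subunit of GABP, 1478, 1592, 1641 and 1228. The median log2 fold change of the 13 was 0.13 in LPS/Control and -0.0012 in WT/LPS. In mut/LPS it was 0.041 (-0.043 after the transcript-length correction), with 7 of 13 above 0. With that correction PPARGC1B went from -0.59 to -0.051 in mut/LPS and PPARGC1A from -0.74 to -0.36. GABPA went from -0.37 to -0.12 and NRF1 from -0.19 to -0.043. Among the hyphenated symbols left out, the read-through NDUFC2-KCTD14, which shares exons with NDUFC2, had 511 to 619 counts, so reads of NDUFC2 may be split between them.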

How the data were processed

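RNA of BEAS-2B cells was measured in 4 libraries, 1 per condition. Per the paper's methods, poly(A) RNA was made into directional libraries and sequenced in pairs, and the authors removed adapters and reads under a quality of 20 and mapped with TopHat; the submitters' processing notes name hg19. The deposited values are raw whole-number counts per gene symbol (the authors' methods name FPKM, but no such values were used). The counting tool, annotation and strand setting are not given in the sources used here.

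Counts were divided by geometric size factors (DESeq2 1.42.0 in R 4.3.3), and 1 was added before log2. Members and all genes needed a mean of at least 16 normalized counts; a call needed a fold of 2 (or 1.5) and 16 normalized counts in either library. Depth was 19682929 to 25155647 counts. Fold intervals are exact binomial at 95%. The floor for a 0 was 3 counts. Length and GC content came from GENCODE 29 (longest protein-coding transcript per gene, matched by name, no coordinates used); lowess had a span of 0.3. Promoters were those of RefSeq (GRCh38.p14), a build other than hg19, and serve for sequence only. Named members were core subunits, the highest per kb in each complex, the 3 highest and 3 lowest of each comparison, and isoforms with their partners; other members and genes named were picked after their values were seen. The values of 2 genes the rules would name are not reported here. The members and lists were chosen with earlier results of these data known. Alternatives were scaling by edgeR 4.0.16 TMM, by totals or by the upper quartile, 5 as pseudocount, other filters and folds, structural subunits alone and the length corrections. The fold and median steps and a correction for transcript length alone were tested on simulated data. The GC step and the coding-length correction were not. Scripts ran in Python 3.11.15 (statsmodels 0.14.6 for lowess, scipy 1.17.1 for intervals, matplotlib 3.10.9 for plots).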

Additional observations from a re-analysis of the deposited data

Results flagged for a closer look

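As measured, the medians of the peptide libraries lay on opposite sides of LPS. Over the 86 members the median log2 fold change relative to LPS was -0.036 with the WT PDZ peptide and 0.34 with the mut PDZ peptide. In complex IV it was -0.054 and 0.39, and in complex V -0.046 and 0.27. With 1 library each, the difference was not tested. The values for mut PDZ+LPS moved with transcript length, and after the transcript-length correction the medians of the members were -0.041 and 0.073. Complex II was then at -0.040 and -0.093 and complex III at -0.034 and -0.053. With the coding-length correction complex II was at -0.040 and 0.010 and complex III at -0.031 and 0.028. The side of LPS on which these 2 complexes lay with the mut PDZ peptide thus depended on the length used.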

How the results depend on the processing

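Each condition had 1 library, so leaving out a replicate was not possible. No paired analysis was possible because each group has 1 sample. The median of the members in LPS/Control was -0.17 with total counts and -0.10 with upper-quartile scaling, where the median of all genes was -0.13 and -0.062, and it was -0.0067 with the coding-length correction. In mut/LPS it was 0.073 with the transcript-length and 0.11 with the coding-length correction, and in mut/WT 0.076 and 0.11; the correction itself is what lowered them. The other settings left these medians between the quartiles of the members' values. The quartiles were -0.10 and 0.029 in LPS/Control, 0.15 and 0.53 in mut/LPS, and 0.21 and 0.51 in mut/WT. They describe the spread over genes, not over replicates. The count at a fold of 1.5 was 15 higher in mut/LPS and 17 higher in mut/WT, against 0 at 2-fold; at 1.5-fold after the transcript-length correction it was 4 and 5, and after the coding-length correction 1 and 0, none of them among the 15 or 17. Without a filter, members with few counts gave 1 higher and 1 lower in LPS/Control, 2 and 2 in WT/LPS, and 3 and 1 in mut/WT. Of 48 values of named members, 20 had the other sign after the transcript-length correction and 6 after the coding-length correction, against 0 to 2 under each other scaling or pseudocount. Of 20 complex medians, 7 and 3 had the other sign after these corrections.

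The share of counts in library order was 0.927%, 0.839%, 0.813% and 1.01% for structural subunits, 0.993%, 0.903%, 0.877% and 1.09% without the 10 most abundant symbols in the total, and 0.768%, 0.688%, 0.672% and 0.890% without SDHA, ATP5A1 and ATP5B. The order of the libraries was the same in each. The coding-length correction, the corrections at 1.5-fold, the share without SDHA, ATP5A1 and ATP5B and size factors without mut PDZ+LPS were added after seeing the data. No mitochondrially encoded symbol was listed, so leaving them out of the total changed nothing.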
